A study of Mus musculus with 28 samples.

Results

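Rod photoreceptors of rd1 mice were compared between postnatal day 2 (P2) and postnatal day 10 (P10), across autosomal genes, to describe how these rods matured in the days before most of them are lost. The comparison rests on 4 of the 28 RNA-seq libraries of the series, namely P2 rd1 replicates 1 and 2 and P10 rd1 replicates 1 and 2, chosen by genotype and age and not by any measured value. The rd1 mice were homozygous for the rd1 allele of Pde6b and carried TgNrlp-GFP, a transgene in which the promoter of the rod gene Nrl drives green fluorescent protein. The WT mice carried the same transgene without the rd1 allele, and their rods at P2 (2 libraries) and P10 (4 libraries) served as the reference for the same interval. In both genotypes retinas were dissociated with papain and GFP-positive cells were sorted by flow cytometry. The sort thus selects for cells that the Nrl promoter marks, though transcripts of other cell types were also read, as described below. The labels give neither the strain nor the number of animals behind a library, nor whether replicates came from separate animals. The p-values thus measure the spread between libraries, which was estimated over all groups of age and genotype in the series.

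Rods leave the cell cycle around birth, switch on the transcription factors Nrl, Nr2e3 and Crx, and then build the outer segment, a stack of membrane discs carried on a modified cilium. In the discs, light leads to the activation of transducin, and transducin activates the phosphodiesterase PDE6, which breaks down cGMP and closes the cGMP-gated cation channel. Pde6b encodes the beta subunit of PDE6, and rods that lack it accumulate cGMP and die. Maturing rods also form a ribbon synapse onto bipolar cells and take up a metabolism in which glycolysis and respiration are both heavily used.

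The 4 libraries held 18.31 and 20.54 M counts at P2 and 21.36 and 17.13 M at P10 (M, mega), and are of a like depth. Rod genes were abundant at both ages. Nrl stood at 1681 and 2067 CPM at P2 and 2571 and 2975 CPM at P10, and Nr2e3 at 2168 and 2018 CPM at P2 and 2372 and 2123 CPM at P10, where CPM is the count scaled to a common library total, as deposited. Transcripts of the inactive X (Xist, 905 to 1455 CPM) and of the Y chromosome (Ddx3y, 10.4 to 37.0 CPM) were both read in each of the 4 libraries. In WT rods Xist stood at 2602 and 2486 CPM at P2 and at 3.77, 0.842, 2.75 and 1610 CPM at P10. Ddx3y stood at 83.2 and 37.3 CPM at P2 and at 79.9, 86.8, 74.7 and 32.2 CPM at P10. The mix of sexes thus differed between the WT ages, and its part in the WT change and in the difference between genotypes was not tested. Markers of other retinal cells were present too, and their values are given after the rod genes. Gm42418, a predicted transcript, stood at 285 and 278 CPM at P2 and 101 and 127 CPM at P10, against 4.24 to 14.9 CPM in the P8 rd1 libraries. In WT rods it stood at 13.8 and 45.8 CPM at P2 and 1.36 to 7.34 CPM at P10. The WT libraries at P2 and P10 held 11.94 to 14.996 M counts, fewer than the rd1 libraries. Depth, and whatever sets the level of Gm42418, therefore cannot be told apart from genotype where the genotypes are compared. P6 rd1 replicates 1 and 3 differed by little more than counting noise and were averaged as 1 sample in the model. Of the 41005 autosomal genes in the table, 17830 passed the filter on low counts and were tested in a model of all groups (edgeR's quasi-likelihood test, two-sided, adjusted p by Benjamini-Hochberg over all genes tested, threshold 0.05).

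At P10, 2607 of these 17830 genes were higher than at P2 (14.6%) and 2752 were lower (15.4%). The sizes of the rises and falls rest on the scaling between libraries given below, so they are not ranked against each other. The median log2 fold change was 1.48 among the higher genes and -1.30 among the lower, while the median over all autosomal genes tested was 0.02. A log2 fold change of at least 1 was reached by 1832 of the higher and 1712 of the lower genes, and a size of at least 3 by 438 and 337. Both P10 libraries lay above both P2 libraries in 2602 of the 2607 higher genes, and below them in each of the 2752 lower genes. The same separation, without a test, held for 29.5% of all genes tested upward and 40.8% downward. It was counted on CPM with no scaling between libraries. The calls used TMM scaling, with factors of 1.03 and 0.993 at P2 and 0.942 and 0.888 at P10. Unscaled CPM thus reads lower at P10, relative to P2, than the values behind the calls, and the 2 shares do not compare rises with falls. Leaving out P10 rd1 replicate 2 left 3107 genes past the threshold in all, and leaving out P2 rd1 replicate 1 left 3395, against 5359 with the 4 libraries.

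The 8 genes named for the largest loss in CPM (Ccnd1, Epha8, Ccdc136, Ptma, Cplx2, Pik3r1, Eef1a1 and Actg1) took 1.26% and 1.23% of all counts at P2 and 0.387% and 0.369% at P10. Among them, Eef1a1, a translation elongation factor, and Actg1, a cytoplasmic actin, had the smallest fold changes (-0.70 and -0.93 on the log2 scale). Their calls were lost when single libraries were left out, for Eef1a1 without either of P10 rd1 replicates 1 and 2 (0.225 and 0.0858) or either of P2 rd1 replicates 1 and 2 (0.135 and 0.106), and for Actg1 without P10 rd1 replicate 2 (0.0766) or P2 rd1 replicate 2 (0.0962), the values in brackets being adjusted p.

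Pde6b, the gene that carries the rd1 allele (ENSMUSG00000029491, bases 108388391 to 108432397 of chromosome 5 in the build GRCm38), was read in every library and rose with age. It stood at 101 and 129 CPM at P2 and 1112 and 1375 CPM at P10, a log2 fold change of 3.59 ± 0.39 (SE, adjusted p = 8.6e-07). Both P10 libraries lay above both P2 libraries. In WT rods it stood at 495 and 709 CPM at P2 and 2579.7, 2735, 2843 and 4138 CPM at P10, with a log2 fold change of 2.48, and the difference between the genotypes in the change was 1.11 ± 0.46 (SE, adjusted p = 0.58). Among its transcripts in rd1 rods, the coding Pde6b-001 stood at 58.8 and 77.4 CPM at P2 and 628 and 808 CPM at P10. The retained-intron transcript Pde6b-002 stood at 34.7 and 42.7 CPM and then at 475 and 557 CPM. Both transcripts were higher in each P10 library than in either P2 library. Total gene level does not show how much functional protein the allele gives.

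Every phototransduction gene tested rose. Of 23 autosomal members of the list, 23 were higher at P10 and 0 lower, with a median log2 fold change of 3.59, against 14.6% higher among all genes tested. At P10 replicate 2 was above replicate 1 in 21 of the 23 genes. In bulk RNA, more cells of a kind and more RNA per cell cannot be told apart, here and in the results that follow.

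In the pathway's order, the transducin alpha subunit Gnat1 stood at 16.6 and 16.1 CPM at P2 and 1058 and 1932 CPM at P10, a log2 fold change of 6.68 ± 0.75 (SE, adjusted p = 1.3e-06). Its beta subunit Gnb1, already read at 901 and 808 CPM at P2, reached 3711 and 4345 CPM at P10, with a log2 fold change of 2.39 ± 0.31 (SE, adjusted p = 6.6e-06). The transducin subunits thus changed by unequal amounts. The PDE6 subunits also started from different levels. Pde6a, the alpha subunit, went from 7.72 and 10.2 CPM to 803 and 1082 CPM (log2 fold change 6.86), and Pde6g, the inhibitory subunit, from 160.5 and 192 CPM to 1777 and 2503 CPM (log2 fold change 3.75). In each of these genes both P10 libraries exceeded both P2 libraries.

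Slc24a1, the sodium, calcium and potassium exchanger that removes calcium from the outer segment, had the largest log2 fold change of the list. It stood at 1.702 and 2.24 CPM at P2 and 485 and 578 CPM at P10, with a log2 fold change of 8.22 ± 0.79 (SE, adjusted p = 2.8e-07). Cnga1 and Cngb1, the subunits of the cGMP-gated channel, rose on the log2 scale by 3.13 and 2.88, from 231 and 229 CPM to 1445 and 1598 CPM in the case of Cngb1. Genes that shut the cascade off rose as well. Sag, which encodes the rod arrestin, stood at 804 and 823 CPM at P2 and 4801 and 6153 CPM at P10 (log2 fold change 2.90 ± 0.36 SE, adjusted p = 4.3e-06). Grk1, a kinase of the cascade, rose on the log2 scale by 4.40 and Rcvrn, recoverin, a calcium sensor that restrains that kinase, by 5.85. Guanylate cyclase, which restores cGMP, rose through Gucy2e (log2 fold change 2.63), and its activators rose on the log2 scale by 6.15 for Guca1b and 1.14 for Guca1a. Guca1a was the least certain of them, and its call was lost without either of P2 rd1 replicates 1 and 2 (0.157 and 0.15) or P10 rd1 replicate 2 (0.362), adjusted p in brackets.

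**Figure D1:**
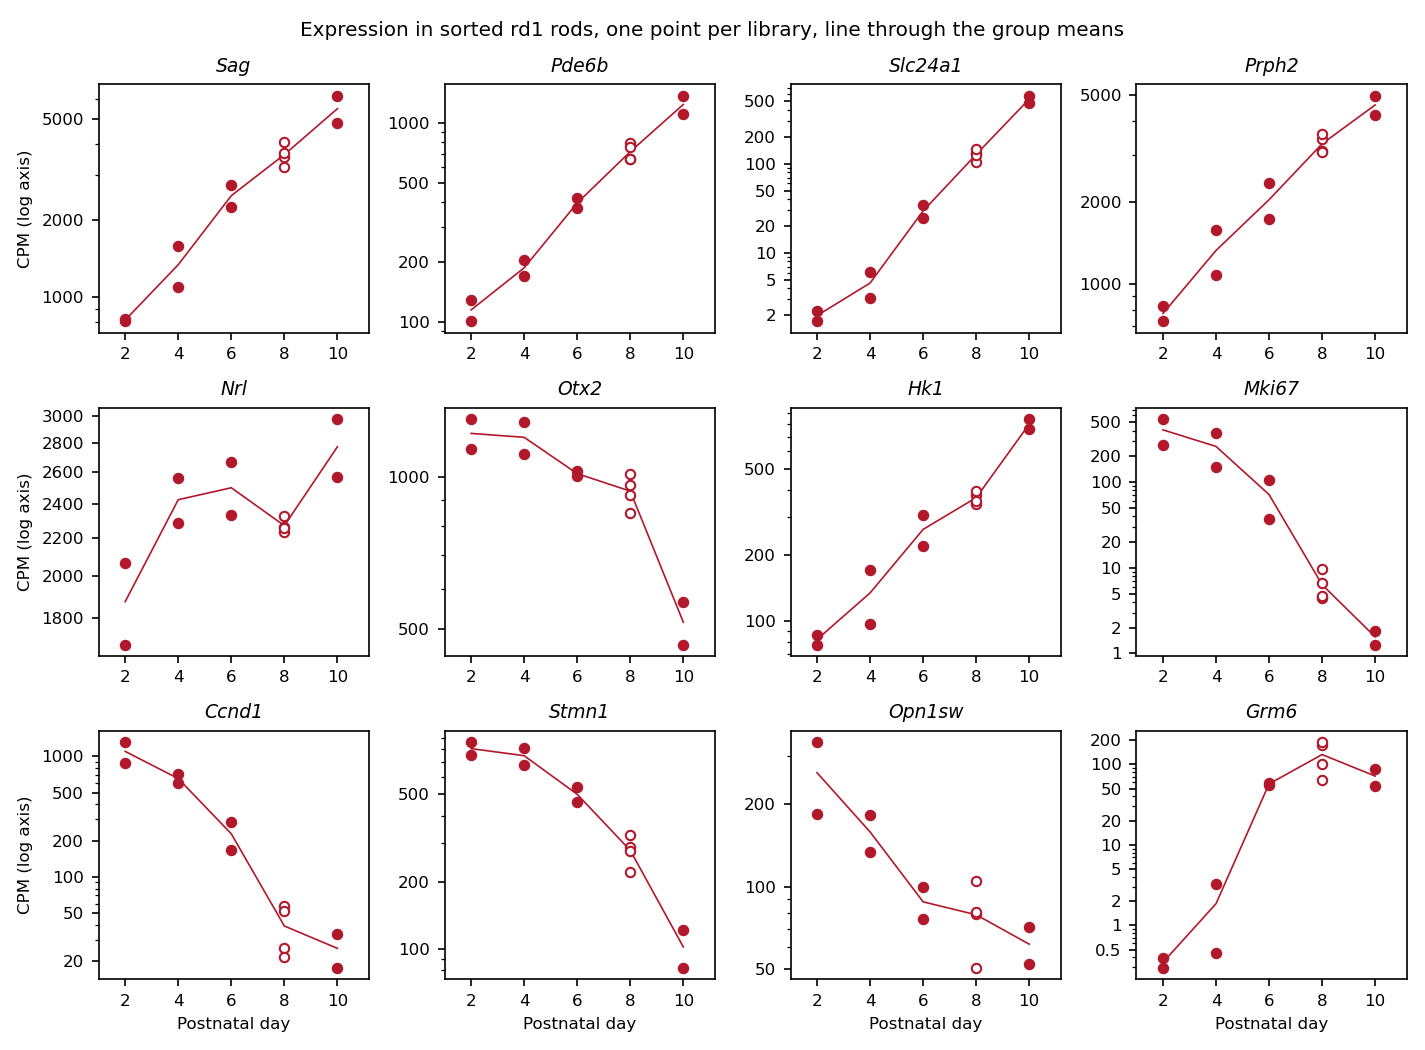
CPM (log axis) of 12 genes in rd1 rods against postnatal day, 1 point per library and a line through the group means. Open points mark P8, whose libraries are of another depth class, and the P6 points include the mean of a near-identical pair. Sag, Pde6b, Slc24a1, Prph2 and Hk1 were higher at each later age in the group means, Mki67, Ccnd1, Stmn1 and Opn1sw were lower, and Grm6 was highest at P8.

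In the plot of 12 genes over the ages, the group means of Sag, Pde6b, Slc24a1, Prph2 and Hk1 rose from each age to the next. Mean Sag stood at 1340.2, 2499 and 3619 CPM at P4, P6 and P8. Mean Pde6a, which is not plotted, stood at 26.1, 95.7 and 299 CPM at the same ages. The steps were unequal between genes. Gnat1, not plotted either, stood at 178, 165, 180 and 236 CPM in the P8 rd1 libraries, against 1058 and 1932 CPM at P10. The 4 libraries at P8 held 11.1 to 13.8 M counts, against 15.98 to 21.36 M in the other rd1 libraries, so age and depth class cannot be told apart there. The share of the change from P2 to P10 already seen was taken on log2(CPM + 0.5), with no scaling between libraries. It was taken only for called genes whose change on that measure exceeded 0.5 in size. Among those called higher, the median share was 20.4% at P4 and 43.6% at P6. Among those called lower it was 14.3% and 38.8%.

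Promoter sequences of genes that rose are shown because they hold letters of the sites that rod transcription factors bind. TAATCC, on either strand, is of the homeodomain kind that CRX and OTX2 bind. RefSeq promoters (GRCm38.p6, 250 bases before to 50 after the gene's start) were matched by symbol for 11947 of the genes tested, and for 13 of the phototransduction genes. TAATCC was found in 7 of these 13 (53.8%), against 6.02% of all matched promoters, 7.90% of those of genes called higher and 4.51% of those called lower. The 7 include Gnb5 and Cnga1, whose RefSeq start lay 5107 and 1523 bases from the gene start in the deposited annotation. TGCTGA, part of the site that NRL binds, was found in 4 of the 13 (30.8%), against 15.9% of all. The outer segment structure list, described next, had 14 matched promoters. TAATCC was found in 2 of these (14.3%) and TGCTGA in 3 (21.4%). A match of letters is a description and not a bound site. In the 3 promoters below, 5′ to 3′ on the strand of the gene, capitals mark TAATCC or its reverse complement GGATTA in Cngb1 and Aipl1, and TGCTGA in Pde6b. The Aipl1 window also holds 1 match of TGCTGA, which is left in small letters.
Cngb1, chr8:95306536-95306835, minus strand: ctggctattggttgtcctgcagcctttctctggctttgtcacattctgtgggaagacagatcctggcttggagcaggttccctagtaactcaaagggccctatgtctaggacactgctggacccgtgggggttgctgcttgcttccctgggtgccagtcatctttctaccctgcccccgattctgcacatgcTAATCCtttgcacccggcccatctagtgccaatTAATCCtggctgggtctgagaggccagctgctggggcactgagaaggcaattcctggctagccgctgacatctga
Aipl1, chr11:72037460-72037759, minus strand: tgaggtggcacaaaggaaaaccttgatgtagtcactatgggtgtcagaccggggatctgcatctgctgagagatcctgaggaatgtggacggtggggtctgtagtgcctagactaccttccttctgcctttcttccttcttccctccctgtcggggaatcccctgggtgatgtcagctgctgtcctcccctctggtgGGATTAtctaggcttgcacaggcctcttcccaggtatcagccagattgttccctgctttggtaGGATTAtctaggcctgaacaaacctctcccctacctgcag
Pde6b, chr5:108388123-108388422, plus strand: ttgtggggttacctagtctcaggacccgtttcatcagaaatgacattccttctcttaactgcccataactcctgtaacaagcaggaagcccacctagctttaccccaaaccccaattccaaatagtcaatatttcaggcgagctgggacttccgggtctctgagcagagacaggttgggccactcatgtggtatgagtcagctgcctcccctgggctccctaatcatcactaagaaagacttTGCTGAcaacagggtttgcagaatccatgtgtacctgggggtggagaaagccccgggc

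Genes of the outer segment's structure rose in most cases. Of 17 entries tested, 14 were higher and 0 lower, with a median log2 fold change of 2.19 (all genes tested, 14.6% higher). Prph2, which encodes peripherin-2, the protein of the disc rim, stood at 727 and 827 CPM at P2 and 4211 and 4957 CPM at P10, a log2 fold change of 2.71 ± 0.34 (SE, adjusted p = 4.4e-06). Rp1, a microtubule protein of the axoneme, stood at 691 and 768 CPM at P2 and 2974 and 3059 CPM at P10 (log2 fold change 2.19). Both genes were higher in each P10 library than in either P2 library. Rdh12, a retinol dehydrogenase, went from 27.1 and 31.1 CPM to 531 and 704 CPM (log2 fold change 4.56), Impg1, a matrix proteoglycan, from 24.03 and 25.5 CPM to 452 and 462 CPM (log2 fold change 4.35), and Abca4, the flippase of retinoid conjugates, from 105 and 111 CPM to 1212 and 1321 CPM (log2 fold change 3.70).

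The 3 entries that did not pass were Impg2 (log2 fold change 0.61, adjusted p = 0.061), the kinase gene Mak (log2 fold change 0.67, adjusted p = 0.075), and a second gene model with the symbol Rp1, which stood at 0.413 and 0 CPM at P2 and 4.26 and 2.67 CPM at P10. Rbp3, the retinoid carrier of the matrix between photoreceptors and pigment epithelium, was already at 3725 and 4704 CPM at P2 and reached 6305 and 6656 CPM at P10, a log2 fold change of 0.77 ± 0.26 (SE, adjusted p = 0.027). That call was lost without either of P10 rd1 replicates 1 and 2 (0.0549 and 0.137) or P2 rd1 replicate 1 (0.221), adjusted p in brackets.

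The cilium and trafficking list moved less. Of 35 members, 19 were higher, 1 was lower and 15 did not pass, with a median log2 fold change of 0.69 (14.6% higher and 15.4% lower among all genes). Aipl1, the chaperone that PDE6 needs to fold, stood at 77.6 and 91.8 CPM at P2 and 788 and 1077 CPM at P10, a log2 fold change of 3.61 ± 0.39 (SE, adjusted p = 1e-06), and both P10 libraries were above both P2 libraries. Arl3 and Unc119, which deliver lipid-modified proteins to the cilium, rose on the log2 scale by 2.10 and 1.31, and Rd3, which guanylate cyclase needs for export, by 1.90. Bbs7 and Bbs9, of the BBSome coat complex, rose on the log2 scale by 1.74 and 1.32. The lower gene was Kif3a, a subunit of the anterograde motor, at 93.3 and 95.8 CPM at P2 and 59.7 and 54.6 CPM at P10 (log2 fold change -0.58), with the call lost without P10 rd1 replicate 2 (0.0534), adjusted p in brackets. Rpgrip1, an anchor of the connecting cilium, stood at 1441 and 1621 CPM at P2 and 1593 and 1201 CPM at P10, where the ages overlapped (adjusted p = 1). Without P2 rd1 replicate 1, and likewise without P10 rd1 replicate 2, 12 members of the list were higher.

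In the ribbon synapse list 12 of 21 members rose, 0 fell and 9 did not pass (median 0.68; 14.6% higher among all genes). The 4 largest rises of the list were in Cabp4, Cplx4, Cacnb2 and Slc17a7. Cabp4, a calcium-binding regulator of the calcium channel, stood at 2.12 and 2.14 CPM at P2 and 90.9 and 139.5 CPM at P10, a log2 fold change of 5.90 ± 0.54 (SE, adjusted p = 1.5e-07). Cplx4, a complexin of ribbon synapses, rose on the log2 scale by 4.86, Cacnb2, a calcium channel subunit, by 4.15, and Slc17a7, the vesicular glutamate transporter VGLUT1, from 87.5 and 141 CPM to 1249.6 and 1379 CPM (log2 fold change 3.66). Dlg4, which encodes the scaffold PSD-95, went from 161 and 250.5 CPM to 936 and 889.6 CPM (log2 fold change 2.29). The scaffold genes of the active zone Bsn and Pclo did not pass. Bsn (bassoon) stood at 91.1 and 116 CPM at P2 and 98.5 and 80.2 CPM at P10 and Pclo (piccolo) at 237 and 272 CPM at P2 and 250.5 and 203 CPM at P10, and in both the ages overlapped. Ctbp2, which encodes the ribbon protein RIBEYE, had a log2 fold change of 0.42 ± 0.16 (SE, adjusted p = 0.055).

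The transcription factors of photoreceptors changed in both directions. Of 15 members, 3 were higher, 2 lower and 10 not past the threshold, with a median log2 fold change of 0.15. These counts were near the shares over all genes tested (14.6% higher, 15.4% lower). Esrrb, an orphan nuclear receptor of rods, was barely read at P2 and stood at 1.34 and 0.497 CPM at P2 and 278 and 397 CPM at P10, a log2 fold change of 8.72 ± 0.81 (SE, adjusted p = 1.9e-07). Mef2c rose from 2.196 and 4.099 CPM to 14.8 and 13.03 CPM (log2 fold change 2.28, adjusted p = 0.0025), with the call lost without P2 rd1 replicate 1 (0.0554), adjusted p in brackets. Nrl had a log2 fold change of 0.71 ± 0.25 (SE, adjusted p = 0.034), and its call was lost without P10 rd1 replicate 2 (0.221) or P2 rd1 replicate 1 (0.243). Both P10 libraries lay above both P2 libraries for Nrl.

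The lower members are factors that act early in the lineage. Prdm1, which steers precursors away from the bipolar fate, stood at 796 and 1032 CPM at P2 and 164 and 102 CPM at P10, a log2 fold change of -2.65 ± 0.26 (SE, adjusted p = 3.5e-07). Otx2, which acts upstream of Crx, stood at 1136 and 1302 CPM at P2 and 565 and 465 CPM at P10 (log2 fold change -1.10 ± 0.21 SE, adjusted p = 0.00036). For both genes each P10 library was below each P2 library. Crx (2155 and 2599 CPM, then 2934 and 2974 CPM, 0.46 on the log2 scale, adjusted p = 0.15) and Nr2e3 (log2 fold change 0.25, adjusted p = 0.49) did not pass. Without P2 rd1 replicate 1 the list had 1 higher member.

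**Figure D2:**
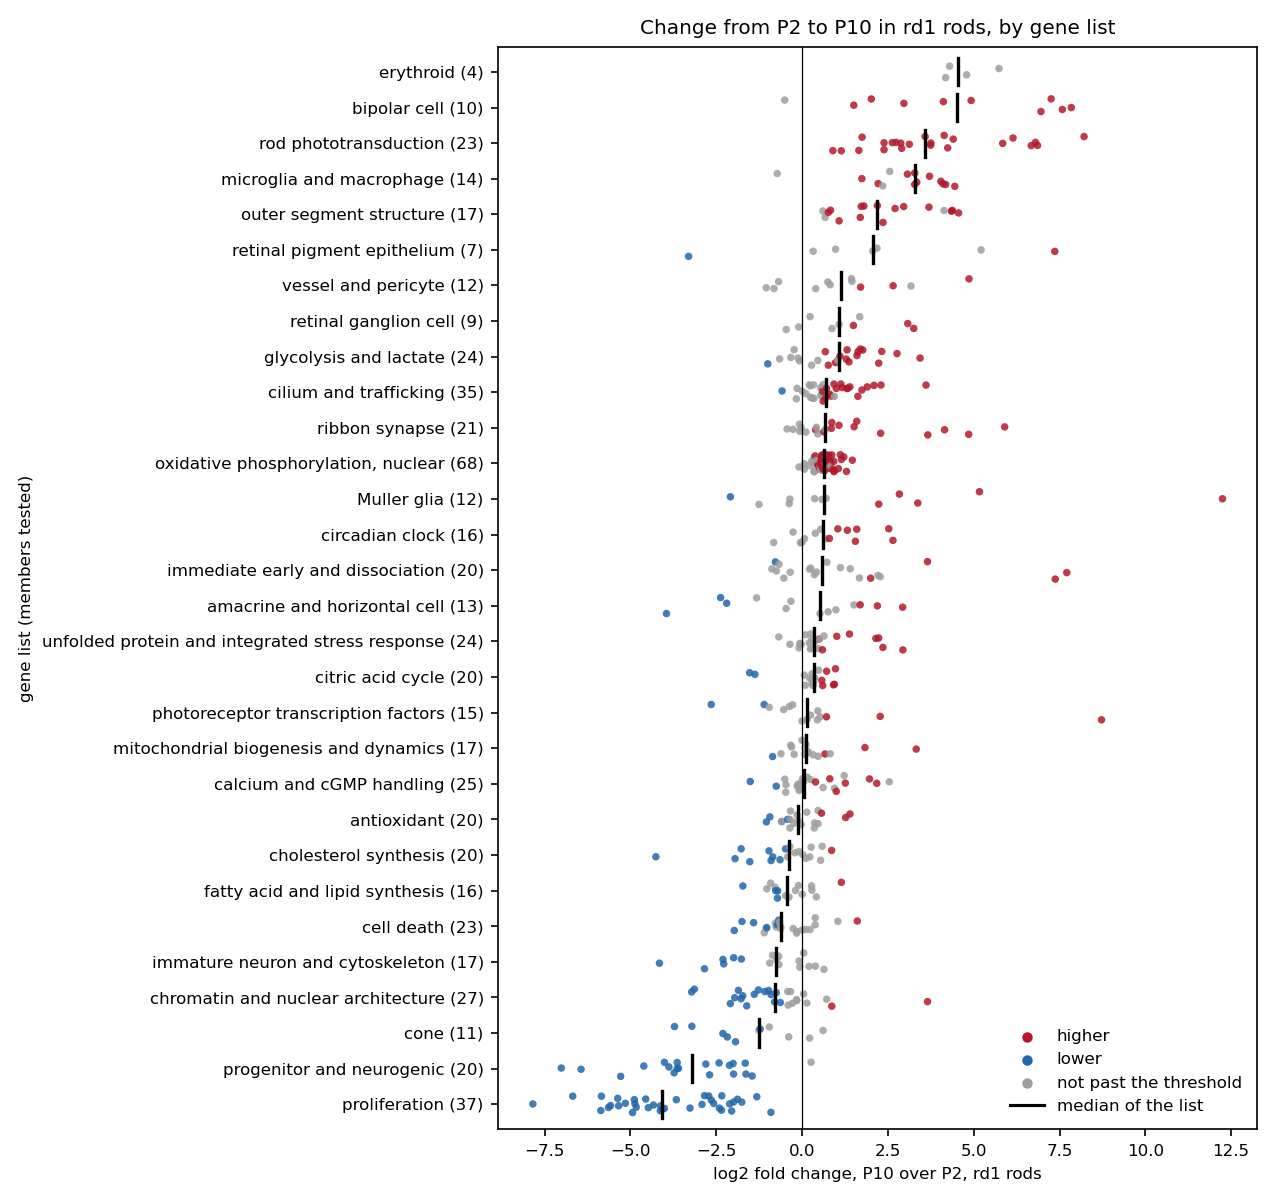
Log2 fold change of P10 over P2 in rd1 rods (x axis) for every member tested of the 30 gene lists (rows, with the number of members tested), 1 point per gene and a bar at the list's median. All 23 phototransduction and all 37 proliferation members lie on opposite sides of 0, while calcium and cGMP handling is centred near 0 with a median of 0.05.

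Every proliferation gene tested fell. Of 37 members, 37 were lower and 0 higher, with a median log2 fold change of -4.07, against 15.4% lower among all genes tested. Summed over the list, the libraries held 3705 and 2463 CPM at P2 and 317 and 326 CPM at P10. Mki67, the marker Ki-67 of cycling cells, stood at 546 and 269 CPM at P2 and 1.85 and 1.27 CPM at P10, a log2 fold change of -7.84 ± 0.88 (SE, adjusted p = 1.4e-06). Top2a, which untangles chromosomes in mitosis, stood at 328 and 203 CPM at P2 and 5.49 and 4.47 CPM at P10 (log2 fold change -5.58), and E2f1, a factor that opens S phase, at 93.5 and 65.4 CPM at P2 and 3.59 and 2.79 CPM at P10 (log2 fold change -4.48). P2 rd1 replicate 1 was above P2 rd1 replicate 2 in these 3 genes, and both P10 libraries were far below either. Some replication genes fell less than the list's median, such as Mcm7, a helicase subunit (log2 fold change -2.05) and Tyms, thymidylate synthase (log2 fold change -1.88). The mitotic genes Depdc1a (12.03 and 5.39 CPM at P2 and 0.0341 and 0 CPM at P10), Kif18b, Kif23 and Ncapg were among the 12 named genes with the largest falls.

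Promoters of 2 of these genes are shown for the motifs that are common in genes of the later cell cycle, the CCAAT box and TTTGAA, the letters of the cell cycle homology region. CCAAT was found, on either strand, in 24 of 32 matched promoters of the proliferation list (75.0%) and in 37.9% of all 11947. TTTGAA was found in 13 of the 32 (40.6%) and in 12.0% of all. Among all genes called lower the shares were 40.7% and 13.7%, near those of all promoters. CCAAT was also found in 7 of 13 phototransduction promoters (53.8%) and in 7 of 14 of outer segment structure (50%). For TTTGAA these shares were 7.69% and 7.14%. Capitals mark either motif or its reverse complement (ATTGG and TTCAAA). The window of Mki67 holds 5 such matches and that of Top2a 8, and none was tested for binding here.
Mki67, chr7:135716330-135716629, minus strand: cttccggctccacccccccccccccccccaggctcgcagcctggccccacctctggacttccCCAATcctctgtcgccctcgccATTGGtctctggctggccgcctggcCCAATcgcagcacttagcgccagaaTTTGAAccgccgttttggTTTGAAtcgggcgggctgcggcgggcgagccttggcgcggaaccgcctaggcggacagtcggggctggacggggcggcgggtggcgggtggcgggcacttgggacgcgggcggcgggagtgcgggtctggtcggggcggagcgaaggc
Top2a, chr11:99024140-99024439, minus strand: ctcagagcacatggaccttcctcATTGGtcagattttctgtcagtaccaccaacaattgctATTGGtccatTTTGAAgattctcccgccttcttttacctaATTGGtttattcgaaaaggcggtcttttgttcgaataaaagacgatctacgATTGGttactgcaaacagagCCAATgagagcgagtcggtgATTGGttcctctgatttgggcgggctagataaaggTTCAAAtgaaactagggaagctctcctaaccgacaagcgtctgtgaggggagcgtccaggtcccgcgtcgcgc

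Progenitor and neurogenic genes fell in 19 of 20 members, with 0 higher and a median log2 fold change of -3.20 (15.4% lower among all genes). Ccnd1, the cyclin D1 of retinal progenitors, stood at 1307 and 887 CPM at P2 and 33.4 and 17.6 CPM at P10, a log2 fold change of -5.28 ± 0.73 (SE, adjusted p = 1.3e-05). Fgf15, a growth factor gene of progenitors, stood at 41.7 and 40.2 CPM at P2 and 0.418 and 0.121 CPM at P10 (log2 fold change -7.01). The Notch ligand genes Dll1 and Dll3 fell by 3.64 and 4.61 on the log2 scale. In each of these the 2 ages were far apart. The other member did not pass. Without P10 rd1 replicate 2 the list had 12 lower members.

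The immature neuron and cytoskeleton list had 6 of 17 members lower, 0 higher and a median of -0.74 (15.4% lower among all genes). Stmn1, a regulator of microtubules in growing neurons, stood at 862 and 751 CPM at P2 and 122 and 82.1 CPM at P10, a log2 fold change of -2.84 ± 0.47 (SE, adjusted p = 8.8e-05). Sox11, a factor of young neurons, went from 75.01 and 52.3 CPM to 4.28 and 2.18 CPM (log2 fold change -4.15). Both P10 libraries were below both P2 libraries in these 2 genes. Map1b (1295 and 1436 CPM at P2 and 1331 and 1037 CPM at P10, adjusted p = 0.86) and Dpysl3 (log2 fold change 0.20, adjusted p = 0.42), other cytoskeletal genes of neurons, did not pass. Outside the lists, Epha8, an ephrin receptor gene, fell from 1194 and 1562 CPM to 18.2 and 7.67 CPM, a log2 fold change of -6.60 ± 0.85 (SE, adjusted p = 5.5e-06).

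Of the chromatin and nuclear architecture genes, 16 of 27 were lower, 2 higher and 9 not past the threshold, with a median of -0.80 (14.6% higher and 15.4% lower among all genes). Mouse rods are known for turning their nucleus inside out after birth, with heterochromatin in the centre and with little lamin B receptor and lamin A/C. Hmgb2, a chromatin protein of dividing cells, stood at 455 and 308 CPM at P2 and 37.3 and 40.8 CPM at P10, a log2 fold change of -3.13 ± 0.35 (SE, adjusted p = 1.2e-06). Cbx5, which encodes heterochromatin protein 1 alpha, fell from 308 and 246 CPM to 80.8 and 57.8 CPM (log2 fold change -1.85), Lmnb1, lamin B1, fell by 1.73 and Dnmt1, the maintenance DNA methyltransferase, fell by 1.27 on the log2 scale. In these 4 genes each P10 library was below each P2 library. Against the list's direction, Lmna, which encodes lamin A/C, rose from 6.35 and 7.38 CPM to 55.8 and 99.7 CPM, a log2 fold change of 3.66 ± 0.47 (SE, adjusted p = 6.2e-06). The other higher member was Dnmt3a, a de novo methyltransferase, at 319 and 388 CPM at P2 and 628 and 541 CPM at P10 (log2 fold change 0.87), with its call lost without P10 rd1 replicate 1 (0.0532) or P2 rd1 replicate 1 (0.107), adjusted p in brackets.

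**Figure D3:**
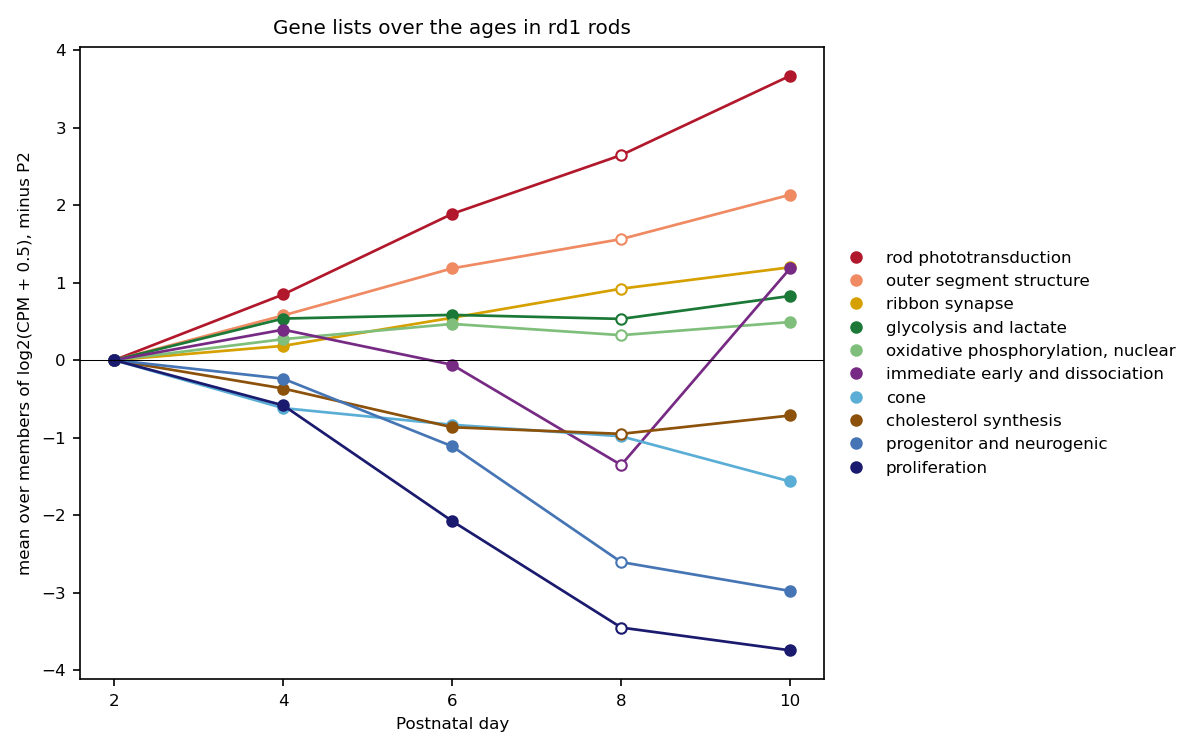
Mean over list members of log2(CPM + 0.5) in rd1 rods minus the value at P2 (y axis) against postnatal day, for 10 lists. Open points mark P8, of another depth class. Phototransduction was 0.85, 1.89, 2.65 and 3.67 above P2 at P4, P6, P8 and P10, proliferation was at -0.58, -2.08, -3.45 and -3.74 at the same ages, and the immediate early list was lowest at P8 and highest at P10.

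Glycolysis and lactate genes rose in 15 of 24 members and fell in 1, with a median log2 fold change of 1.08 (14.6% higher among all genes). Hk1, the hexokinase that starts glycolysis, stood at 86.3 and 77.7 CPM at P2 and 756 and 845 CPM at P10, a log2 fold change of 3.44 ± 0.34 (SE, adjusted p = 4.1e-07). Hk2, the isoform known from photoreceptors, went from 4.905 and 8.87 CPM to 26.8 and 35.7 CPM (log2 fold change 2.32). For both the P10 libraries were above the P2 libraries. Aldoa and Aldoc, the aldolases, rose on the log2 scale by 1.70 and 2.23, Eno1, enolase, by 1.29, Gapdh by 1.11 and the monocarboxylate transporter gene Slc16a1 by 2.77. Ldha, lactate dehydrogenase A, stood at 1746 and 1939.6 CPM at P2 and 1864 and 2164 CPM at P10 (log2 fold change 0.28, adjusted p = 0.35) and Pkm, pyruvate kinase, at 2073 and 1967 CPM at P2 and 2306 and 2697 CPM at P10 (log2 fold change 0.46, adjusted p = 0.066). The glucose transporter gene Slc2a1 had a log2 fold change of -0.12 (adjusted p = 0.72). The lower member was Pdk2, an inhibitor of pyruvate dehydrogenase, at 156 and 177 CPM at P2 and 84.6 and 66.8 CPM at P10 (log2 fold change -0.998 ± 0.17 SE, adjusted p = 0.00013).

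Nuclear genes of oxidative phosphorylation rose by small amounts. Of 68 members, 45 were higher, 0 lower and 23 not past the threshold, with a median log2 fold change of 0.65 (14.6% higher among all genes). Ndufa4 stood at 106 and 97.9 CPM at P2 and 231 and 274 CPM at P10, a log2 fold change of 1.47 ± 0.23 (SE, adjusted p = 5e-05). Atp5b, the catalytic subunit of ATP synthase, stood at 657 and 634 CPM at P2 and 1006 and 1167 CPM at P10 (log2 fold change 0.90), and Cox6c, of cytochrome oxidase, at 125 and 118 CPM at P2 and 225 and 259 CPM at P10 (log2 fold change 1.15). Both P10 libraries were above both P2 libraries in these 3 genes. Uqcrc2, a core subunit of complex III, stood at 144 and 130.0 CPM at P2 and 123 and 136 CPM at P10, where the ages overlapped. The number of members called depended on single libraries. With P10 rd1 left at 1 library it was 12 (replicate 2 out) or 39 (replicate 1 out), and with P2 rd1 left at 1 library it was 22 (replicate 1 out) or 27 (replicate 2 out).

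The citric acid cycle list had 6 of 20 members higher and 2 lower (median 0.34; 14.6% higher and 15.4% lower among all genes). Mdh1, malate dehydrogenase, stood at 172 and 166 CPM at P2 and 269 and 328 CPM at P10 (log2 fold change 0.97 ± 0.16 SE, adjusted p = 0.00011) and Idh3a, of the NAD-linked isocitrate dehydrogenase, rose on the log2 scale by 0.92. Idh2, the NADP-linked mitochondrial isoform, fell from 80.4 and 66.02 CPM to 28.4 and 22.6 CPM (log2 fold change -1.37 ± 0.22 SE, adjusted p = 5.8e-05). The other lower member was Suclg2 (log2 fold change -1.53), whose call was lost without either of P10 rd1 replicates 1 and 2 (0.141 and 0.136) or P2 rd1 replicate 1 (0.251), adjusted p in brackets. Without P2 rd1 replicate 1, and without P10 rd1 replicate 2, the list had 4 higher members and 1 lower, and without P10 rd1 replicate 1 it had 1 lower.

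Of 17 genes of mitochondrial biogenesis and dynamics, 3 rose and 1 fell (median 0.11; 14.6% higher and 15.4% lower among all genes). Ppargc1b, a coactivator that drives mitochondrial genes, stood at 19.4 and 16.2 CPM at P2 and 160.2 and 162 CPM at P10, a log2 fold change of 3.33 ± 0.47 (SE, adjusted p = 1.5e-05). Chchd10, an intermembrane space protein, rose from 27.4 and 28.6 CPM to 88.5 and 91.7 CPM (log2 fold change 1.83) and Mfn2, a fusion protein, by 0.67. Tfam, which packages and transcribes mitochondrial DNA, fell from 71.2 and 57.8 CPM to 30.9 and 33.2 CPM (log2 fold change -0.86 ± 0.21 SE, adjusted p = 0.004).

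More lipid genes fell than rose. In the cholesterol synthesis list 9 of 20 members were lower and 1 higher (median -0.39; 14.6% higher and 15.4% lower among all genes). Srebf2, the regulator of the pathway, stood at 288 and 343 CPM at P2 and 106 and 93.1 CPM at P10 (log2 fold change -1.52 ± 0.25 SE, adjusted p = 7.1e-05). Insig1, which holds that regulator back, stood at 96.4 and 71.5 CPM at P2 and 21.5 and 17.6 CPM at P10 (log2 fold change -1.95). Both P10 libraries were below both P2 libraries in these 2 genes. The higher member was Dhcr7 (log2 fold change 0.86, with the call lost without P2 rd1 replicate 1 (0.0936), adjusted p in brackets). In the fatty acid list 4 of 16 were lower and 1 higher (median -0.43; the same shares). Elovl4, which makes the very long chain fatty acids of photoreceptor membranes, rose from 262 and 362 CPM to 592 and 656 CPM (log2 fold change 1.15 ± 0.20 SE, adjusted p = 0.00019), while Fads1, a desaturase, fell from 149 and 129.6 CPM to 43.7 and 32.5 CPM (log2 fold change -1.72 ± 0.27 SE, adjusted p = 5.8e-05). Without P10 rd1 replicate 2 a single fatty acid gene was lower, and without P2 rd1 replicate 1 there were 2.

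Genes of the unfolded protein and integrated stress response rose in 8 of 24 members and fell in 0 (median 0.34; 14.6% higher among all genes). Eif2ak3, which encodes PERK, the kinase that senses misfolded protein in the endoplasmic reticulum, stood at 43.7 and 49.5 CPM at P2 and 164 and 209 CPM at P10, a log2 fold change of 2.15 ± 0.19 (SE, adjusted p = 1.1e-07). Genes of the pathway's output were among the higher members. Asns, asparagine synthetase, went from 8.96 and 7.75 CPM to 29.2 and 41.3 CPM (log2 fold change 2.23) and Trib3, a pseudokinase, from 2.13 and 3.98 CPM to 17.1 and 25.5 CPM (log2 fold change 2.94). Both P10 libraries were above both P2 libraries in these 3 genes. Among the chaperones, Hspa5, BiP, stood at 250.4 and 302 CPM at P2 and 344 and 432 CPM at P10 (log2 fold change 0.64, adjusted p = 0.056) and Hsp90b1 at 423 and 446 CPM at P2 and 483 and 524 CPM at P10 (log2 fold change 0.36, adjusted p = 0.2). Atf4, the central factor, stood at 709 and 968 CPM at P2 and 661 and 828 CPM at P10 (log2 fold change -0.02, adjusted p = 0.96). Ddit3, Chac1 and Xbp1, with log2 fold changes of 1.01, 2.36 and 1.38, lost their calls without P10 rd1 replicate 2 (0.0921) or P2 rd1 replicate 1 (0.129) for Ddit3, without P10 rd1 replicate 2 (0.0754) or P2 rd1 replicate 1 (0.125) for Chac1, and without P2 rd1 replicate 1 (0.0554) for Xbp1, adjusted p in brackets. The list had 3 higher members without P2 rd1 replicate 1 and 4 without P10 rd1 replicate 2.

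Cell death genes were mostly lower or not past the threshold. Of 23 members 6 fell, 1 rose and 16 did not pass (median -0.62; 15.4% lower among all genes). Apaf1, the scaffold of the apoptosome, fell from 41.04 and 55.4 CPM to 15.6 and 17.2 CPM (log2 fold change -1.41 ± 0.25 SE, adjusted p = 0.00017), and Bcl2l1, which encodes the survival protein BCL-XL, fell by 1.03 on the log2 scale. In both genes each P10 library was below each P2 library. Bmf, which promotes apoptosis, rose from 22.3 and 28.1 CPM to 68.9 and 70.3 CPM (log2 fold change 1.61 ± 0.30 SE, adjusted p = 0.00032). Bax, a pore-forming death effector, stood at 46.1 and 52.9 CPM at P2 and 48.1 and 57.03 CPM at P10 and Parp1 at 173 and 205 CPM at P2 and 145 and 141 CPM at P10, neither past the threshold. Without P2 rd1 replicate 2 the list had 3 lower members.

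Of 25 calcium and cGMP handling genes, 6 rose and 2 fell (median 0.05; 14.6% higher and 15.4% lower among all genes). Camk2g and Camk2d, calcium-activated kinases, rose from 66.6 and 59.9 CPM to 188 and 255 CPM (log2 fold change 1.96 ± 0.20 SE, adjusted p = 5.5e-07) and from 110.4 and 143 CPM to 275 and 274 CPM (log2 fold change 1.26). Mcu, the pore of the mitochondrial calcium uniporter, rose on the log2 scale by 0.81. Slc8a3, a sodium and calcium exchanger, fell from 38.00 and 35.5 CPM to 14.4 and 8.97 CPM (log2 fold change -1.51 ± 0.30 SE, adjusted p = 0.00058). In these 4 genes the ages did not overlap. Atp2a2, the endoplasmic reticulum calcium pump, stood at 329 and 344 CPM at P2 and 341 and 288 CPM at P10, and its ages overlapped. In the antioxidant list 3 of 20 members were higher and 4 lower (median -0.13), near the shares over all genes. Gpx4, which reduces lipid peroxides, stood at 211 and 209 CPM at P2 and 409.9 and 501 CPM at P10 (log2 fold change 1.27 ± 0.23 SE, adjusted p = 0.00019), and Prdx2, a peroxiredoxin, at 292 and 281 CPM at P2 and 135 and 135 CPM at P10 (log2 fold change -0.94 ± 0.24 SE, adjusted p = 0.0051). Single libraries decided several calls in both lists, with 1 lower calcium gene without P2 rd1 replicate 1. Likewise 1 antioxidant gene was higher and 2 were lower without P2 rd1 replicate 1 and without P10 rd1 replicate 2, and 2 were lower without P10 rd1 replicate 1.

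Of 16 clock genes 7 rose and 0 fell (median 0.62; 14.6% higher among all genes). Per1, a repressor of the clock, stood at 54.6 and 71.2 CPM at P2 and 163 and 180.1 CPM at P10, a log2 fold change of 1.595 ± 0.28 (SE, adjusted p = 0.00018). Cry2, its partner, went from 70.2 and 65.1 CPM to 129 and 123 CPM (log2 fold change 1.04) and Bhlhe41 from 22.99 and 8.41 CPM to 92.1 and 84.2 CPM (log2 fold change 2.65). Both P10 libraries exceeded both P2 libraries in these 3 genes. Arntl (BMAL1), the activator, stood at 189.8 and 192 CPM at P2 and 165 and 179.6 CPM at P10, without a call (adjusted p = 1). The labels give no hour of collection. Without P2 rd1 replicate 2 the list had 4 higher members.

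Immediate early and inducible heat shock genes are ones that cell dissociation and stress can raise quickly. Of 20 members 4 rose, 1 fell and 15 did not pass (median 0.57; 14.6% higher and 15.4% lower among all genes). Hspa1a and Hspa1b, near-identical neighbouring genes of the inducible HSP70 between which reads may be divided, stood at 2.88 and 3.16 CPM at P2 and 399 and 510.3 CPM at P10 and at 2.601 and 2.57 CPM at P2 and 422 and 562 CPM at P10. Their log2 fold changes were 7.38 ± 0.74 (SE, adjusted p = 4e-07) and 7.71 ± 0.67 (SE, adjusted p = 1.1e-07). Mean Hspa1b stood at 3.51, 4.49 and 5.69 CPM at P4, P6 and P8, below both P10 libraries. Nr4a1, an immediate early nuclear receptor, stood at 33.9 and 39.5 CPM at P2 and 342 and 490.3 CPM at P10 (log2 fold change 3.65 ± 0.42 SE, adjusted p = 1.6e-06).

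Fos stood at 149.7 and 145 CPM at P2 and 490.2 and 736 CPM at P10 (log2 fold change 2.21, adjusted p = 0.28) and Jun at 372 and 633 CPM at P2 and 235 and 307 CPM at P10 (log2 fold change -0.75, adjusted p = 0.46). For Fos both P10 rd1 libraries lay above both P2 rd1 libraries. The test takes its spread from all groups, and Fos ranged widely within some, at 5.02, 360 and 33.4 CPM in the P4 WT libraries. Atf3 (log2 fold change 2.00) lost its call without P10 rd1 replicate 2 (0.166) or P2 rd1 replicate 1 (0.194), and Btg2, the lower member (log2 fold change -0.78), lost its call without either of P10 rd1 replicates 1 and 2 (0.0644 and 0.266) or P2 rd1 replicate 2 (0.353), adjusted p in brackets. Summed over the list, the libraries held 1754 and 2516 CPM at P2 and 3709 and 4627 CPM at P10, with means of 2779.6 CPM at P4, 1893 CPM at P6 and 832 CPM at P8. The WT libraries held 574 and 1224 CPM at P2 and 493, 568, 585 and 2017 CPM at P10. The highest of these, P10 WT replicate 5, stood apart from the other P10 WT libraries, with Fos in WT at 17.02 and 6.39 CPM at P2 and 26.6, 54.3, 38.5 and 515 CPM at P10. The part of dissociation in these values was not tested.

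Several of the largest rises were in genes used as markers of other retinal cells, and these lists are given here whole. Bipolar cell markers rose in 9 of 10 members (14.6% of all genes), with a median of 4.52 and summed levels of 170.3 and 146 CPM at P2 and 669 and 432 CPM at P10. Grm6, the glutamate receptor of ON bipolar cells, stood at 0.296 and 0.396 CPM at P2 and 88.9 and 54.2 CPM at P10, a log2 fold change of 7.84 ± 0.95 (SE, adjusted p = 2.9e-06), and Isl1 at 4.29 and 4.005 CPM at P2 and 83.99 and 47.2 CPM at P10 (log2 fold change 4.12). Prkca, of rod bipolar cells, rose from 80.9 and 72.9 CPM to 215 and 181 CPM (log2 fold change 1.51). At P10 replicate 1 exceeded replicate 2 in these 3 genes. Vsx1 was at 0 and Bhlhe23 at 0.230 CPM in P2 rd1 replicate 1, and in replicate 2 these were 0.102 and 0 CPM. The WT rods had summed bipolar levels of 173 and 188 CPM at P2 and 1814, 1462, 1245 and 389 CPM at P10, lowest in replicate 5. Their part in the changes of rod genes was not tested.

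Microglia and macrophage markers rose in 11 of 14 members (median 3.28; 14.6% among all genes), from summed levels of 36.7 and 20.5 CPM at P2 and 99.6 and 171 CPM at P10. Cx3cr1, the fractalkine receptor, stood at 2.11 and 0.793 CPM at P2 and 9.23 and 15.9 CPM at P10 (log2 fold change 3.28 ± 0.66 SE, adjusted p = 0.00068), and C1qb, a complement gene, at 1.14 and 0.322 CPM at P2 and 8.45 and 20.5 CPM at P10 (log2 fold change 4.45 ± 1.04 SE, adjusted p = 0.0024). No member was at 0 in any of the 4 libraries, and P10 rd1 replicate 2 was highest. The markers P2ry12 (log2 fold change 2.55) and Tmem119 (log2 fold change 2.35) did not pass (adjusted p = 0.077 and 0.085). The number called was 7 without P2 rd1 replicate 2.

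Müller glia markers rose in 5 of 12 members and fell in 1 (median 0.64; 14.6% higher and 15.4% lower among all genes), summed at 1412 and 1060.0 CPM at P2 and 1217 and 1242 CPM at P10. Abca8a was at 0 in both P2 libraries and at 43.8 and 31.3 CPM at P10, at least 242-fold higher against a floor of 3 counts per library, which covers counting error only. Clu, clusterin, stood at 12.1 and 7.597 CPM at P2 and 79.8 and 103 CPM at P10 (log2 fold change 3.37 ± 0.28 SE, adjusted p = 7.3e-08), and Aqp4, aquaporin 4, at 0.479 and 0.0957 CPM at P2 and 8.51 and 10.5 CPM at P10 (log2 fold change 5.17). Glul, glutamine synthetase, stood at 271 and 289.5 CPM at P2 and 321 and 331 CPM at P10, without a call (adjusted p = 0.35). The lower member, Sox9, stood at 61.8 and 53.7 CPM at P2 and 14.5 and 10.03 CPM at P10, with its call lost without either of P2 rd1 replicates 1 and 2 (0.0865 and 0.059) or either of P10 rd1 replicates 1 and 2 (0.0838 and 0.169), adjusted p in brackets.

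Apart from the cone list, given further below, the remaining marker lists had 0 to 3 members called in each direction. Among all genes tested, 14.6% were higher and 15.4% lower. Vessel markers had 3 of 12 higher and 0 lower (median 1.13, summed at 386 and 244 CPM at P2 and 212 and 176 CPM at P10, with 1 member at 0 in P2 rd1 replicate 2), ganglion cell markers 3 of 9 higher and 0 lower (1.08, 41.8 and 44.4 CPM at P2 and 166 and 133 CPM at P10, none at 0). Amacrine and horizontal cell markers had 3 of 13 higher and 3 lower (0.52, 600.5 and 449 CPM at P2 and 482 and 304 CPM at P10, none at 0), and pigment epithelium markers 1 of 7 in each direction (2.06, 18.2 and 17.9 CPM at P2 and 20.2 and 15.6 CPM at P10). These sums include members below the filter, and so counted 3 and 2 pigment epithelium genes were at 0 at P2 and 1 and 0 at P10. The 4 globin genes, summed at 0.324 and 0.294 CPM at P2 and 5.81 and 9.58 CPM at P10, did not pass (median 4.55), and 2 and 1 of them were at 0 at P2. The vessel calls fell to 0 without P2 rd1 replicate 2 and to 1 without P2 rd1 replicate 1. The ganglion cell calls fell to 1 without either P2 library or P10 rd1 replicate 1. The higher amacrine and horizontal calls fell to 0 without either P2 library and to 1 without P10 rd1 replicate 2, and the lower calls fell to 1 without P2 rd1 replicate 1 and without P10 rd1 replicate 2.

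Among the other genes with the largest rises, Drd4, the dopamine receptor of photoreceptors, stood at 0.121 and 0.108 CPM at P2 and 161 and 268 CPM at P10 (adjusted p = 3.5e-06). Its P2 values are under 3 counts in each library, so no fold is given. Kcnj14, a potassium channel gene, stood at 0.759 and 0.577 CPM at P2 and 177 and 293 CPM at P10, a log2 fold change of 8.59 ± 0.95 (SE, adjusted p = 1.2e-06), and mean levels of 1.42, 5.31 and 16.7 CPM at P4, P6 and P8. Both genes were higher in P10 rd1 replicate 2 than in replicate 1, and far above P2 in either. Cryab, a small heat shock protein gene, stood at 0.348 and 0 CPM at P2 and 27.04 and 27.9 CPM at P10 (adjusted p = 1.2e-06). At the other end, Krt73, a keratin gene, stood at 13.97 and 10.6 CPM at P2 and 0 and 0 CPM at P10, at least 77.8-fold lower at P10 against the floor of 3 counts per library. Rnase9 went from 10.8 and 22.5 CPM at P2 to 0.228 and 0 CPM at P10 and was listed at 0 in WT rods at both ages.

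Over the same interval, in WT rods 2946 genes were higher (16.5%) and 2980 lower (16.7%) at P10. Of the 2607 genes higher in rd1 rods, 1821 were also higher in WT rods, which is 69.9% of the rd1 list and 61.8% of the WT list. Of the 2752 lower genes, 2021 were also lower in WT rods (73.4% and 67.8%). Opposite calls were made for 6 genes higher in rd1 and 5 lower in rd1. Over the genes called in rd1, the median log2 fold change in WT rods was 1.17 for the higher and -0.96 for the lower, on genes chosen for their change in rd1. Across the 11865 genes whose mean log2 CPM reached 2, Pearson's r between the 2 genotypes' log2 fold changes was 0.88 (0.75 across all 17830) as a description, since genes are not independent replicates and share the same libraries.

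**Figure D4:**
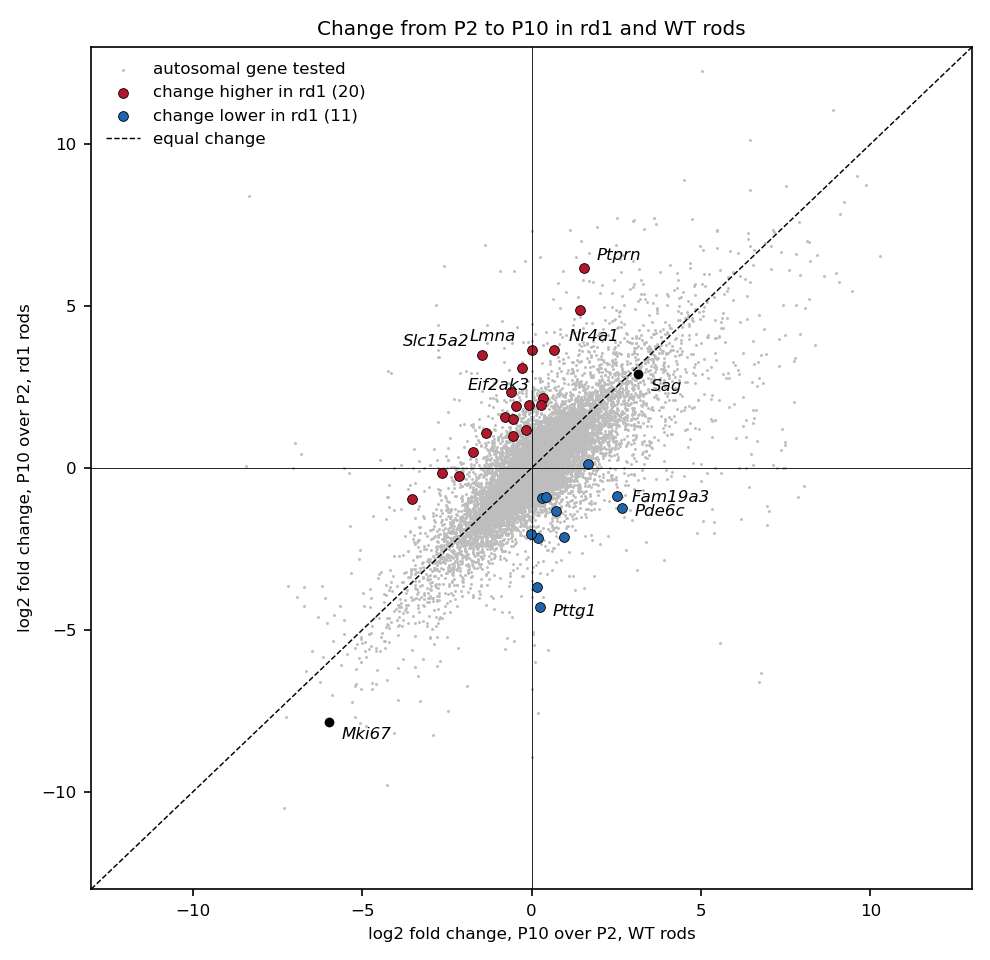
Log2 fold change of P10 over P2 in rd1 rods (y axis) against that in WT rods (x axis) for 17830 autosomal genes, with the 31 genes whose change differed between the genotypes in colour and Sag and Mki67 as black points. Most genes lie along the dashed line of equal change, and the coloured genes lie off it (20 above, 11 below).

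A test of the difference itself, the change in rd1 rods minus the change in WT rods, passed for 31 genes, 20 with a change higher in rd1 (0.112% of genes tested) and 11 with a lower one (0.0617%). At an unadjusted p under 0.05 there were 1329. The count depended on single libraries and on the tool. It was 131 by DESeq2 and 51 by limma-voom. With edgeR it was 12 without P10 rd1 replicate 2, 19 without P2 rd1 replicate 2 or either P2 WT library, 48 without P6 WT replicate 1, and 85 without P10 WT replicate 5. In the lists of phototransduction, outer segment structure, synapse, proliferation and progenitor genes, 0 members passed this test. With so few genes passing among all tested, a count of 0 says little about these lists. Their median differences were, in that order, -0.20, -0.0029, 0.03, -0.77 and -0.17, against -0.02 over all autosomal genes tested. For proliferation the median log2 fold change was -4.07 in rd1 rods and -3.03 in WT rods, and this gap was not tested. For Sag the difference was -0.24 ± 0.45 (SE, adjusted p = 0.95), with WT rods at 750.1 and 845 CPM at P2 and 5034, 5705, 6536 and 8383 CPM at P10. For Mki67 it was -1.87 ± 0.98 (SE, adjusted p = 0.72). A p above the threshold does not show that the genotypes changed alike.

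The genes whose rise was larger in rd1 rods include the stress genes Eif2ak3, Hsph1 and Nr4a1. By list, 1 of 24 unfolded protein and integrated stress response members and 1 of 20 immediate early members passed in this direction. Over all genes tested the share was 0.112%. Eif2ak3 stood at 42.4 and 44.5 CPM at P2 and 48.4, 52.4, 44.2 and 56.5 CPM at P10 in WT rods, against the rd1 values of 43.7 and 49.5 CPM at P2 and 164 and 209 CPM at P10, and the difference was 1.82 ± 0.24 (SE, adjusted p = 0.00049). Hsph1, an HSP110 chaperone, stood at 61.1 and 63.99 CPM at P2 and 239 and 200.1 CPM at P10 in rd1 and 64.1 and 87.9 CPM at P2 and 75.7, 62.5, 62.9 and 67.6 CPM at P10 in WT, a difference of 2.02 ± 0.28 (SE, adjusted p = 0.00076). In both genes the 2 rd1 libraries at P10 lay above all other libraries of the 2 ages. Nr4a1 stood at 19.5 and 15.9 CPM at P2 and 22.2, 14.4, 23.98 and 40.6 CPM at P10 in WT, with a difference of 2.99 ± 0.51 (SE, adjusted p = 0.0081). Its call was lost without P2 WT replicate 1 (0.0523), either of P2 rd1 replicates 1 and 2 (0.0917 and 0.0594) or P10 rd1 replicate 2 (0.0977), adjusted p in brackets. Hspa1a and Hspa1b did not pass (differences 4.06 and 4.09, adjusted p = 0.18 for both).

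The secretory and signalling genes Ptprn and Twsg1 also differed. Ptprn, which encodes a protein of dense-core vesicles, rose in rd1 rods from 16.1 and 9.24 CPM to 703 and 925 CPM, with means of 10.2, 17.8 and 82.1 CPM at P4, P6 and P8, and stood at 6.63 and 13.6 CPM at P2 and 24.3, 24.7, 39.3 and 21.8 CPM at P10 in WT. The difference was 4.62 ± 0.52 (SE, adjusted p = 4.5e-05). Twsg1, a modulator of BMP signalling, stood at 84.1 and 76.7 CPM at P2 and 166 and 250.1 CPM at P10 in rd1 and 88.7 and 85.8 CPM at P2 and 58.9, 56.7, 55.7 and 47.5 CPM at P10 in WT (difference 2.09 ± 0.23 SE, adjusted p = 4.5e-05). Both genes were higher in the P10 rd1 libraries than in any WT library of the 2 ages. Ctnnal1, an alpha-catenin-like gene, rose in rd1 from 51.6 and 40.3 CPM to 138 and 172 CPM and stood at 56.2 and 39.9 CPM at P2 and 31.3, 33.8, 31.2 and 31.2 CPM at P10 in WT (difference 2.38 ± 0.31 SE, adjusted p = 0.00041). Lmna stood at 5.12 and 3.38 CPM at P2 and 6.11, 4.59, 3.36 and 1.94 CPM at P10 in WT, a difference of 3.65 ± 0.60 (SE, adjusted p = 0.0057), lost without P2 WT replicate 1 (0.0523), P2 rd1 replicate 1 (0.0614) or P10 rd1 replicate 2 (0.0897).

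Myof, a membrane repair gene, stood at 1.01 and 0.606 CPM at P2 and 19.8 and 21.6 CPM at P10 in rd1 and 17.2 and 20.6 CPM at P2 and 62.3, 52.4, 38.9 and 36.4 CPM at P10 in WT (difference 3.44 ± 0.50 SE, adjusted p = 0.0013). Slc15a2, a peptide transporter gene, stood at 0.866 and 0.446 CPM at P2 and 6.99 and 6.45 CPM at P10 in rd1 and 207 and 176 CPM at P2 and 73.5, 92.9, 47.01 and 46.7 CPM at P10 in WT (difference 4.96 ± 0.78 SE, adjusted p = 0.0042), and the call was lost without P2 rd1 replicate 2 (0.0772). Both genes were far lower in rd1 than in WT at P2 and remained lower at P10. Qsox1, a sulfhydryl oxidase gene, stood at 90.3 and 69.97 CPM at P2 and 93.6 and 110.1 CPM at P10 in rd1, without a call there, and at 120.0 and 91.7 CPM at P2 and 34.8, 31.2, 32.4 and 19.6 CPM at P10 in WT, where it fell (difference 2.24 ± 0.32 SE, adjusted p = 0.0013). Mmp2, a matrix metalloproteinase gene, was higher in rd1 at P2 (87.9 and 108 CPM, then 22.1 and 18.1 CPM) and stood at 11.4 and 13.5 CPM at P2 and 23.1, 23.8, 23.4 and 19.3 CPM at P10 in WT (difference -3.09 ± 0.30 SE, adjusted p = 5.7e-06).

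Pttg1, which encodes securin, the inhibitor of sister chromatid separation, fell in rd1 rods from 25.4 and 18.8 CPM to 1.06 and 0.9100 CPM and stood at 9.45 and 7.004 CPM at P2 and 11.1, 9.72, 8.04 and 7.503 CPM at P10 in WT, a difference of -4.55 ± 0.44 (SE, adjusted p = 5.7e-06). Fam19a3 stood at 36.7 and 39.2 CPM at P2 and 21.97 and 15.9 CPM at P10 in rd1 and 15.9 and 17.8 CPM at P2 and 133, 99.7, 109.7 and 27.9 CPM at P10 in WT (difference -3.40 ± 0.58 SE, adjusted p = 0.0075), lost without either of P2 WT replicates 1 and 2 (0.0678 and 0.0534) or P10 rd1 replicate 2 (0.102). Dscam, a cell adhesion gene, stood at 48.8 and 52.3 CPM at P2 and 56.3 and 42.8 CPM at P10 in rd1 and 46.8 and 39.4 CPM at P2 and 136, 133, 115 and 118 CPM at P10 in WT (difference -1.54 ± 0.27 SE, adjusted p = 0.0081), lost without P2 rd1 replicate 2 (0.0631), P2 WT replicate 2 (0.0734) or P10 rd1 replicate 2 (0.102). In the 3 genes all 4 WT libraries at P10 lay above both rd1 libraries of that age. Hs3st4 and Pip4k2a fell in rd1 from 26.5 and 31.6 CPM to 7.75 and 5.098 CPM and from 26.8 and 24.5 CPM to 9.102 and 9.299 CPM. Their differences from WT were -2.02 ± 0.38 (SE, adjusted p = 0.018) and -2.05 ± 0.36 (SE, adjusted p = 0.0093), lost without P2 rd1 replicate 2 (0.113), P2 WT replicate 2 (0.135) or P10 rd1 replicate 2 (0.253) for Hs3st4 and without P2 rd1 replicate 1 (0.0502), either of P10 rd1 replicates 1 and 2 (0.0761 and 0.076) or P2 WT replicate 2 (0.0965) for Pip4k2a.

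**Figure D5:**
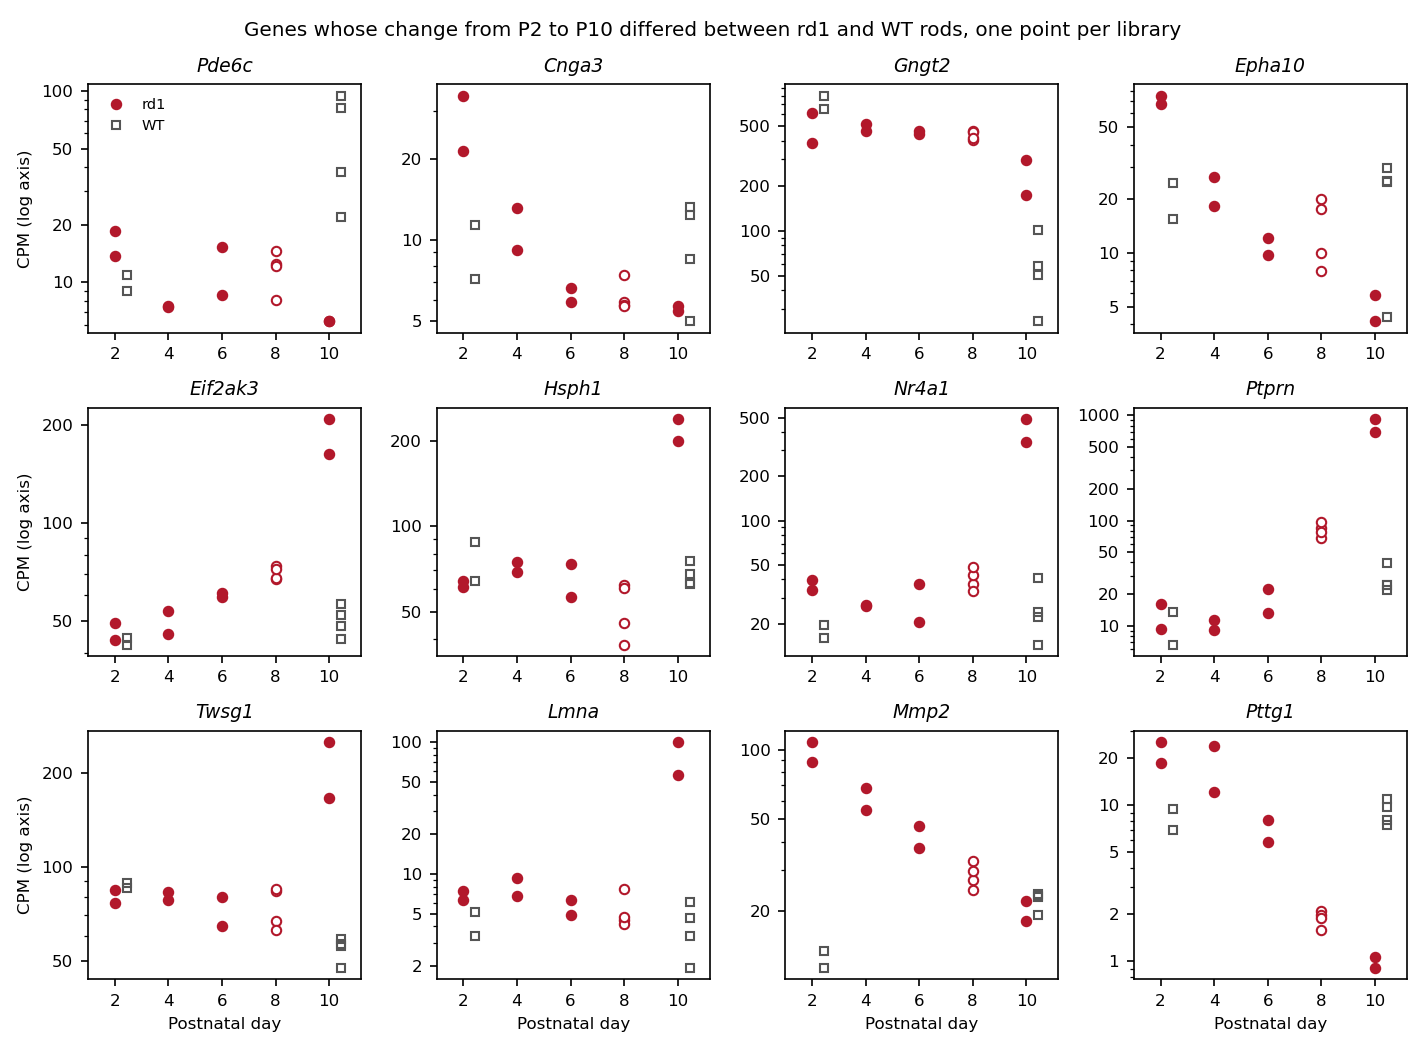
CPM (log axis) of 12 genes whose change from P2 to P10 differed between the genotypes, 1 point per library: rd1 rods at 5 ages (circles, open at P8) and WT rods at P2 and P10 (squares, set slightly right of their age). Eif2ak3, Hsph1, Nr4a1, Ptprn, Twsg1 and Lmna are highest in the 2 rd1 libraries at P10, and the rd1 group means of Pttg1 and Cnga3 fall from each age to the next.

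The cone list had 3 members among these differences, Pde6c and Cnga3 with a lower change in rd1 and Gngt2 with a higher one. Cones share the phototransduction logic of rods with their own isoforms, and rods keep cone genes low through Nrl and Nr2e3. In rd1 rods 6 of 11 cone markers were lower at P10 and 0 higher (median -1.25; 15.4% lower among all genes), from summed levels of 1548 and 2338 CPM at P2 and 1153 and 941 CPM at P10. Opn1sw, the S opsin, stood at 184 and 337 CPM at P2 and 52.2 and 70.9 CPM at P10, a log2 fold change of -1.94 ± 0.45 (SE, adjusted p = 0.0022). Rxrg, a nuclear receptor of cones, stood at 48.2 and 45.9 CPM at P2 and 3.66 and 2.78 CPM at P10 (log2 fold change -3.72 ± 0.42 SE, adjusted p = 1.3e-06), and Cngb3, a cone channel subunit, at 67.5 and 102 CPM at P2 and 18.3 and 12.9 CPM at P10 (log2 fold change -2.30 ± 0.28 SE, adjusted p = 2.6e-06). P2 rd1 replicate 2 was higher than replicate 1 in Opn1sw and Cngb3, and both P10 libraries were below either.

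Pde6c, the cone phosphodiesterase, rose in WT rods (2.66 on the log2 scale) and fell in rd1 rods. It stood at 13.8 and 18.5 CPM at P2 and 6.31 and 6.25 CPM at P10 in rd1 (log2 fold change -1.22 ± 0.45 SE, adjusted p = 0.044) and at 10.9 and 8.99 CPM at P2 and 80.99, 37.7, 94.3 and 21.8 CPM at P10 in WT, with a difference of -3.88 ± 0.62 (SE, adjusted p = 0.0042). The fall in rd1 lost its call without either of P2 rd1 replicates 1 and 2 (0.0608 and 0.214) or either of P10 rd1 replicates 1 and 2 (0.163 and 0.153), and the difference lost it without P2 WT replicate 2 (0.0509) or P10 rd1 replicate 2 (0.0568), adjusted p in brackets. Cnga3, the other cone channel subunit, stood at 21.3 and 34.2 CPM at P2 and 5.46 and 5.68 CPM at P10 in rd1 and 11.4 and 7.15 CPM at P2 and 13.3, 8.47, 12.3 and 4.99 CPM at P10 in WT (difference -2.35 ± 0.48 SE, adjusted p = 0.043). That call was lost without any of P10 WT replicates 2, 3 and 4 (0.0705, 0.0599 and 0.0928), either of P2 WT replicates 1 and 2 (0.066 and 0.234), either of P10 rd1 replicates 1 and 2 (0.21 and 0.245) or P2 rd1 replicate 2 (0.25). Gngt2, a cone transducin subunit, stood at 383 and 614 CPM at P2 and 298 and 172 CPM at P10 in rd1 and 798 and 648 CPM at P2 and 101, 50.8, 57.6 and 24.7 CPM at P10 in WT (difference 2.58 ± 0.51 SE, adjusted p = 0.034). It fell in WT rods (-3.53), and the change in rd1 did not pass. This call too was lost without either of P10 rd1 replicates 1 and 2 (0.21 and 0.0511), either of P2 rd1 replicates 1 and 2 (0.261 and 0.0631), either of P10 WT replicates 3 and 4 (0.0781 and 0.0669) or either of P2 WT replicates 1 and 2 (0.102 and 0.0734). Opn1sw itself, at 166 and 88.8 CPM at P2 and 163, 155, 200.3 and 43.5 CPM at P10 in WT, had a difference of -2.17 ± 0.59 (SE, adjusted p = 0.2), and Thrb, which encodes the thyroid hormone receptor of cones, one of -1.52 ± 0.32 (SE, adjusted p = 0.053). Among the WT libraries at P10, replicate 5 was lowest in Pde6c, Cnga3, Gngt2 and Opn1sw. The share of cones in each sort was not tested.

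Epha10, an ephrin receptor gene, fell in rd1 rods from 67.2 and 75.02 CPM to 5.84 and 4.16 CPM (log2 fold change -3.68 ± 0.57 SE, adjusted p = 4.4e-05) and stood at 24.4 and 15.5 CPM at P2 and 24.9, 25.3, 29.6 and 4.41 CPM at P10 in WT, a difference of -3.85 ± 0.72 (SE, adjusted p = 0.019), with the call lost without either of P2 rd1 replicates 1 and 2 (0.0502 and 0.0791), either of P2 WT replicates 1 and 2 (0.0677 and 0.162) or either of P10 rd1 replicates 1 and 2 (0.0863 and 0.234). At P2 both rd1 libraries lay above both WT libraries, and at P10 they lay below 3 of the 4 WT libraries.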

How the data were processed

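RNA-seq libraries of flow-sorted GFP-positive retinal cells were prepared with the TruSeq Stranded mRNA kit and sequenced in pairs of 125 bases, per the labels and the series' design. The submitters' processing notes name kallisto 0.42.4, edgeR 3.32.1 and the build GRCm38.p5, and kallisto gives estimated counts. The authors deposited estimated counts per gene and per transcript, which need not be whole, and CPM per gene. The deposited CPM values equal the counts scaled to a common library total (largest difference 5.82e-11). Levels are printed as these CPM, with no scaling between libraries.

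Samples were grouped by the genotype and age in the labels. For the tests, estimated gene counts were rounded to whole numbers and fitted with edgeR 4.0.16 (R 4.3.3, quasi-likelihood, TMM scaling, filterByExpr) over all 10 groups of age and genotype. The 18608 genes tested were adjusted together by Benjamini-Hochberg, and 17830 autosomal ones are counted. P6 rd1 replicates 1 and 3 gave a chi-square of 1.44 per degree of freedom over transcripts with at least 20 counts, against 7.01 to 154 for 28 other pairs of a group, and their mean was used, leaving 27 samples (12 rd1, 15 WT) and 17 residual degrees of freedom. The SE of a log2 fold change is its size divided by the square root of the F statistic. A column without a sample (1) was not used. The script was tested on simulated data.

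The comparison, its genes and its gene lists were chosen with earlier results of these data known. Genes are named by rule: Pde6b, Nrl, Nr2e3 and Crx; the 12 largest log2 fold changes in each direction among called genes whose mean log2 CPM reached 2 and whose ages did not overlap; up to 6 members of each list past the threshold by smallest p and up to 3 others by highest CPM; the 8 largest gains and losses in CPM; and the 8 smallest p in each direction of the difference between genotypes. Gnat1, Rcvrn, Guca1b, Guca1a, Cngb1, Cnga1, Grk1, Gucy2e, Dlg4, Bsn, Pclo, Ctbp2, Hk2, Eno1, Suclg2, Dnmt3a, Kif3a, Dhcr7, Isl1 and Hspa5 were named after their values were seen. Some genes that the rule names are not reported here. Alternatives were DESeq2 1.42.0, limma-voom (limma 3.58.1), RLE size factors, no filter, other sets of samples, the replicate number as a block and leaving out libraries. In the rd1 libraries, the correlation between the ages of the replicate 1 minus replicate 2 difference was 0.0765 over genes, and the numbers were not taken to pair samples.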

Additional observations from a re-analysis of the deposited data

Results flagged for a closer look

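The change from P2 to P10 differed between rd1 and WT rods, by the test of the difference itself, in 31 genes. Of the 20 named, the change on the log2 scale was higher in rd1 rods by 1.82 in Eif2ak3, 2.02 in Hsph1, 2.09 in Twsg1, 2.24 in Qsox1, 2.38 in Ctnnal1, 2.58 in Gngt2, 2.99 in Nr4a1, 3.44 in Myof, 3.65 in Lmna, 4.62 in Ptprn and 4.96 in Slc15a2. It was lower in rd1 rods in Dscam (-1.54), Hs3st4 (-2.02), Pip4k2a (-2.05), Cnga3 (-2.35), Mmp2 (-3.09), Fam19a3 (-3.40), Epha10 (-3.85), Pde6c (-3.88) and Pttg1 (-4.55). Of these 20 genes, 11 lost the call when 1 library was left out (Cnga3, Dscam, Epha10, Fam19a3, Gngt2, Hs3st4, Lmna, Nr4a1, Pde6c, Pip4k2a and Slc15a2).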

How the results depend on the processing

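The count of autosomal genes past the threshold between P2 and P10 in rd1 rods, 5359, was 4676 to 6904 under the other tools, scalings, filters and sample sets. Leaving out 1 of the 4 libraries gave 3107 (without P10 rd1 replicate 2) to 3976, with 3395 without P2 rd1 replicate 1. The count for the difference between genotypes, 31, was 131 with DESeq2, 51 with limma-voom, 82 with no filter on low counts, 56 with every library kept apart and 9 with only the libraries of the groups compared. It was 12 (without P10 rd1 replicate 2) to 85 (without P10 WT replicate 5) when 1 library was left out, and 48 without P6 WT replicate 1, an alternative chosen after seeing the data (5722 for the change in rd1 rods). With the replicate block the counts were 5598 and 53, while the numbers were not shown to pair samples. The cause of these shifts was not tested, and the runs that leave libraries out also hold fewer samples. No named gene's call reversed under any alternative run. Over the named genes and alternatives, calls for the change in rd1 rods stayed in 3826 cases, were lost in 120 and gained in 135, and for the difference they stayed in 303 and were lost in 57. Medians of the gene lists moved by more than the spread between libraries in 55 cases and by less in 335. Of 225 named genes past the threshold in rd1 rods, 51 lost the call when 1 of the 4 libraries was left out. With 2 libraries in each rd1 group, small changes are the least certain, and genes near 0 at either age are limited by depth.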
